A study of Homo sapiens with 11 samples.

Results

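The comparison described here is between the histone H3 lysine 27 acetylation (H3K27ac) peaks of 2 chromatin immunoprecipitation libraries of Ishikawa cells, an endometrial cancer line, one from cells given 100 nM dexamethasone for 8 h and one from cells given the vehicle DMSO for 8 h. The members are all peaks of both lists, 15192 with dexamethasone and 21120 with vehicle, 36312 of the 90458 peaks in the 8 lists of the series. A peak was called kept when it shared at least 1 bp with a peak of the other list. A dexamethasone peak with no vehicle partner was called gained and a vehicle peak with no dexamethasone partner was called lost, so these words describe calls in lists and not levels. Glucocorticoid receptor (GR) sites came from another library, of cells given 100 nM dexamethasone for 1 h, with 1815 sites, and estrogen receptor (ER) sites, used as a comparison, from cells given 10 nM estradiol for 1 h, with 3560 sites. H3K27ac lists of cells given 10 nM estradiol (23888 peaks), or 10 nM estradiol with 100 nM dexamethasone (20873 peaks), both for 8 h, served as comparisons. All cells were kept in hormone-stripped serum before treatment, per the labels. Each treatment has 1 library, so no replicate spread can be given, and the labels do not say if cultures were pooled. The cell type was not checked against markers, because no hg19 gene annotation was used here.

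H3K27ac lies on nucleosomes beside active promoters and enhancers, and it tends to be low over the short stretch where a transcription factor displaces the nucleosome. Dexamethasone is a synthetic glucocorticoid. It binds GR, which then moves to the nucleus, binds DNA and recruits coactivators, some of which acetylate histones, or represses genes through other factors. In the endometrium glucocorticoids are known to oppose some actions of estrogen.

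The 2 libraries were unequal in depth. The vehicle library held 18508574 usable tags with 18% duplicates, scaled by the peak caller to 14002417, and the dexamethasone library held 9034395 with 33% duplicates, unscaled. The vehicle peaks covered 18.0 Mb and the dexamethasone peaks 12.4 Mb, with median widths of 547 and 471 bp. The part of depth and duplicates in the gained, lost and width values below was not tested.

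Gene names given here rest on general knowledge of the hg19 gene map and were not read from an annotation. The strongest gained peaks included a set at the upstream start of FKBP5, which encodes a co-chaperone of GR and is a textbook glucocorticoid target. Among the strongest lost peaks were peaks at the starts of IPO13, a nuclear transport receptor, and TCF3, a helix-loop-helix transcription factor. The 250 bases before these starts are shown with CG dinucleotides in capitals, for genes chosen after their peaks were seen. The sequences are from RefSeq on build GRCh38.p14 and were matched by symbol, on the minus strand for FKBP5 and TCF3 and on the plus strand for IPO13.
FKBP5 (the more upstream of its 2 listed starts): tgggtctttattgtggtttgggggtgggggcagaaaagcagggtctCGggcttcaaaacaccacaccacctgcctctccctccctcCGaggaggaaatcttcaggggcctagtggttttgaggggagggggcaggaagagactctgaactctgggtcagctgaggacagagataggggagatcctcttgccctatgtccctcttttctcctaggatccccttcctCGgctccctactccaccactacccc
IPO13: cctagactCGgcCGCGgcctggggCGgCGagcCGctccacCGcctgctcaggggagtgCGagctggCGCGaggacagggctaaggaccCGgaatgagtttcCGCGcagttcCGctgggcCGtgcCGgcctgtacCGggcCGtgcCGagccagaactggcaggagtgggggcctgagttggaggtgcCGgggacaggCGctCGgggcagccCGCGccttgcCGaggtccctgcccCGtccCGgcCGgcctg
TCF3: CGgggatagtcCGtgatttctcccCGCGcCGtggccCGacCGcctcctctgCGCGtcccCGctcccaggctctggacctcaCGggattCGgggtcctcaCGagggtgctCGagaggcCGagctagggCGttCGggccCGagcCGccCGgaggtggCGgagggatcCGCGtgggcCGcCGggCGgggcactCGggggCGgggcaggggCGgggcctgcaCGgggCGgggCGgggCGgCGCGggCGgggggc
FKBP5 held 3 CG dinucleotides in these bases, IPO13 held 28 and TCF3 held 36, against a median of 11 over 35116 RefSeq promoters. REXO1, at another of the strongest lost peaks, held 29, and PER1, which has gained peaks at its GR sites, held 18. The second FKBP5 start also held 29, so the low number belongs to the upstream start and not to the gene. With so few starts, no difference between gained and lost peaks can be read from these numbers.

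More acetylation peaks went missing with dexamethasone than appeared. Of the 21120 vehicle peaks, 11266 were lost (53.3%, exact Clopper-Pearson 95% interval 52.7 to 54.0) and 9854 were kept. Of the 15192 dexamethasone peaks, 3769 were gained (24.8%, 24.1 to 25.5) and 11423 were kept. Gained peaks made up 25.1% of all changed calls, and 42.2% once both lists were cut to equal length by the authors' −log10 q. These intervals, here and below, are over peaks and cover counting error only. Close to the 1 bp rule, 235 kept dexamethasone peaks shared 100 bp or less with a vehicle peak, and 245 gained peaks lay within 100 bp of one. On the vehicle side, 156 kept peaks shared 100 bp or less and 159 lost peaks lay within 100 bp of a dexamethasone peak.

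Gained peaks were narrow and mostly weak, while lost peaks reached into the strongest part of the vehicle list. The median width was 342 bp for gained peaks (middle 50% of peaks 263 to 501 bp) and 428 bp for lost peaks (318 to 603 bp), against 544 bp and 841 bp for the kept peaks of the dexamethasone and vehicle lists. Gained peaks covered 13.2% of the dexamethasone peak length and lost peaks 31.8% of the vehicle peak length. With each list split by the authors' −log10 q into 4 equal strength classes, gained peaks were 4.45% of the strongest class and 43.5% of the weakest. Lost peaks were 22.1% of the strongest vehicle class, 54.7% of the next, and 68.0% and 68.5% of the weaker classes.

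GR sites were rare beside lost peaks, while their shares beside gained and kept peaks lay near that of the whole dexamethasone list. A GR site lay within 1 kb of 9.12% of all dexamethasone peaks and 4.47% of all vehicle peaks. It lay within 1 kb of 405 gained peaks (10.7%, 9.77 to 11.8), of 981 kept dexamethasone peaks (8.59%, 8.08 to 9.12) and of 88 lost peaks (0.781%, 0.627 to 0.961). Gained peaks with a GR site were wider than those without, with medians of 467 and 330 bp. The order of gained and kept peaks turned when the GR site had to overlap the peak: 2.47% of gained and 4.81% of kept dexamethasone peaks then had one, and 0.257% of lost peaks did.

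Lost calls became more frequent with every step away from GR. Of vehicle peaks that overlapped a GR site, 4.81% (3.24 to 6.83) were lost. The share was 17.3% for peaks up to 1 kb away, 26.9% at 1 to 5 kb, 31.5% at 5 to 10 kb, 39.0% at 10 to 25 kb, 43.4% at 25 to 50 kb, 47.8% at 50 to 100 kb, 57.6% at 100 to 250 kb and 60.8% (59.9 to 61.6) beyond 250 kb. Peaks that overlapped a GR site were also wide and strong, with a median of 2096 bp against 524 bp beyond 250 kb. The order of peaks within 1 kb, at 1 to 10 kb, at 10 to 100 kb and farther away held inside each of the 4 strength classes of the vehicle list. In the strongest class 0.654% (0.135 to 1.90) of peaks with a GR site within 1 kb were lost and 26.9% (25.4 to 28.4) of those more than 100 kb from one. In the weakest class these shares were 29.9% (22.9 to 37.8) and 75.2% (73.8 to 76.6).

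Gained calls were most frequent beside GR sites rather than on them. Of dexamethasone peaks that overlapped a GR site 14.5% (11.8 to 17.4) were gained, against 42.0% (38.4 to 45.6) at up to 1 kb, 44.7% (41.3 to 48.0) at 1 to 5 kb and 20.9% (19.98 to 21.9) beyond 250 kb. The overlapping peaks had a median width of 1819 bp and those at 1 to 5 kb one of 456 bp. Within the strongest class of the dexamethasone list, 10.3% (8.17 to 12.8) of peaks with a GR site within 1 kb were gained and 3.06% (2.34 to 3.93) of those more than 100 kb away. At 1 to 10 kb the share in that class was 3.31% (1.67 to 5.85), so the high share there was not seen among the strongest peaks. In the weakest class 63.9% (59.1 to 68.6) were gained at 1 to 10 kb and 36.9% (34.9 to 38.9) beyond 100 kb.

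**Figure D1:**
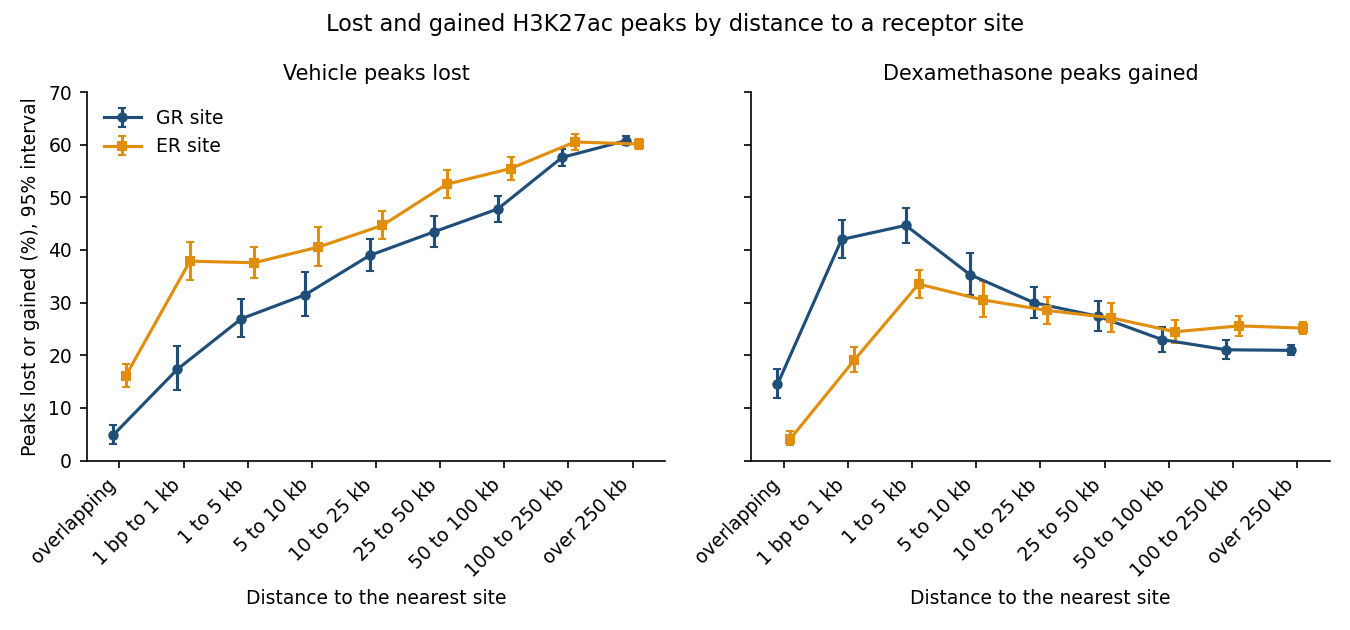
Share of vehicle peaks lost (left) and of dexamethasone peaks gained (right), in percent, by distance to the nearest GR site (circles) or ER site (squares), with exact 95% intervals over peaks. Lost calls climb from 4.81% on GR sites to 60.8% beyond 250 kb, and gained calls peak at 44.7% at 1 to 5 kb from GR.

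ER sites showed part of the same pattern. Lost peaks were 16.1% (14.0 to 18.4) of vehicle peaks on an ER site and 60.1% (59.1 to 61.1) beyond 250 kb. Gained peaks were 4.12% (2.92 to 5.63) of dexamethasone peaks on an ER site, 19.1% (16.8 to 21.6) at up to 1 kb, 33.5% (30.9 to 36.3) at 1 to 5 kb and 25.2% (24.0 to 26.3) beyond 250 kb. Taking vehicle peaks by the receptors within 1 kb, 12.0% (9.43 to 15.0) were lost with GR and no ER, 29.8% (27.4 to 32.2) with ER and no GR, 5.44% (3.40 to 8.20) with both and 57.4% (56.7 to 58.1) with neither. Among dexamethasone peaks, 38.8% (35.6 to 42.0) were gained with GR and no ER, and 12.5% (10.8 to 14.3) with ER and no GR. The share was 11.5% (8.82 to 14.7) with both receptors and 25.8% (25.01 to 26.6) with neither. Peaks with an ER site alone thus had fewer gained calls than peaks with neither receptor, and peaks with a GR site alone had more. Dexamethasone peaks that overlapped an ER site had a median −log10 q of 58.5. The median was 24.3 for peaks up to 1 kb away and 21.8 beyond 250 kb. The part of peak strength in the gained shares by receptor was not tested.

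Kept peaks shifted in rank and width according to GR. Pairs were taken where each peak met exactly 1 peak of the other list, which gave 6556 pairs, and the authors' pileup (fragment coverage at the summit) was ranked over the same pairs in each list on a scale of 0 to 100. Across all pairs 50.4% ranked higher with dexamethasone, and the pileups of the lists had a Spearman rho of 0.498 across pairs, which share their 2 libraries. The 455 pairs with a GR site within 1 kb moved up by a median of 12.3 percentile points (95% interval of the median 7.75 to 14.9), with 328 of them higher. Under some other settings this median was lower: 5.77 with 50% of a peak covered, 6.09 with GR inside the peak, 7.49 with the stronger 50% of each list and 7.66 with lists of equal length. It was 11.9 with GR within 10 kb and 12.9 with the stronger 50% of the GR list. The 6101 other pairs had a median of -0.56 (-1.17 to 0.0076). The shift fell with distance, to 11.5 points at 1 to 10 kb, 3.21 at 10 to 100 kb and -3.11 beyond 100 kb.

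Low-ranking peaks tend to move up and high-ranking ones down when ranks are noisy, so the shift was also read within 4 classes of vehicle pileup of equal size. In the lowest class the median was 33.2 points (24.9 to 39.9) for 107 pairs with GR and 14.6 (13.4 to 16.4) for 1532 without. The next class had 29.8 (23.7 to 37.0) with GR and 5.57 (3.46 to 7.36) without. The class above it had 20.2 (14.6 to 23.1) with GR and -10.7 (-12.8 to -8.60) without. In the highest class the values were 0.51 (-0.20 to 1.33) with GR and -12.8 (-14.7 to -11.0) without. Pairs with GR stood above the others in each of the 4 classes.

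Over all kept pairs the median was narrower with dexamethasone, and beside GR it was slightly wider. Over all pairs 33.1% were wider with dexamethasone and the median log2 width ratio of dexamethasone to vehicle was -0.32 (-0.35 to -0.29). It was -0.11 when 50% of a peak had to be covered and -0.59 when peaks within 1 kb counted as shared. Pairs with a GR site within 1 kb had a median of 0.10 (0.07 to 0.15), and 284 of 455 were wider. Pairs without one had -0.37 (-0.40 to -0.34). The median was -0.02 at 1 to 10 kb from GR, -0.18 at 10 to 100 kb and -0.46 beyond 100 kb. Pairs with an ER site and no GR site had -0.15 (-0.26 to -0.06) and a rank shift of 2.51 points (0.80 to 4.33), below the pairs with GR on both measures. By vehicle pileup, pairs with GR had width ratios of 0.60 (0.44 to 0.80) in the lowest class and 0.05 (0.01 to 0.10) in the highest. The classes between had 0.03 (-0.12 to 0.19) and 0.09 (-0.08 to 0.25), whose intervals include no change. Pairs without GR in the lowest class were also wider, at 0.11 (0.06 to 0.15). In the classes above, pairs without GR had -0.40, -0.72 and -0.54.

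**Figure D2:**
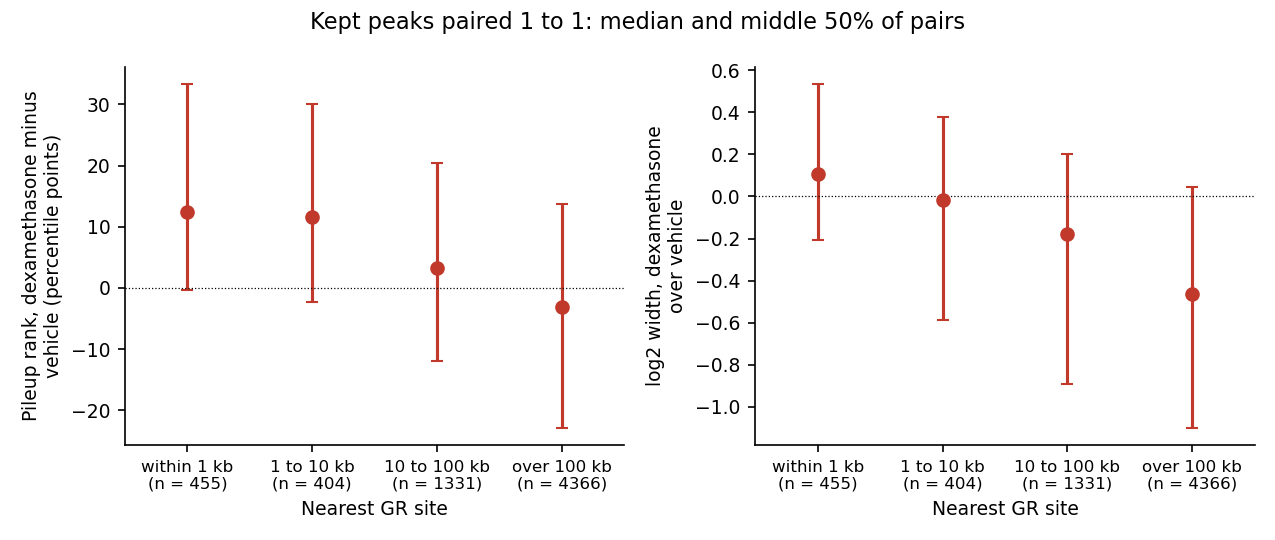
Pileup rank shift in percentile points (left) and log2 width ratio (right) of kept peaks paired 1 to 1, dexamethasone against vehicle, by distance to the nearest GR site. Points are medians and bars span the middle 50% of pairs. Both medians fall with distance, from 12.3 points and 0.10 within 1 kb to -3.11 points and -0.46 beyond 100 kb.

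Of the 5 kept pairs that rose most in rank, 3 were on chromosome 13, and 2 of these 3 lay in the same region. Chromosome 13 held 403 of the 15192 dexamethasone peaks and 452 of the 21120 vehicle peaks. The largest rise was at chr13:83733660-83735854, from rank 1.48 with vehicle to 95.8 with dexamethasone, where the peak was 754 bp wide with vehicle and 2195 bp with dexamethasone. The next was at chr13:83621958-83625768, on a GR site, from rank 1.48 to 93.3 and from 257 to 3811 bp, which was also the largest widening among pairs with GR. Then followed chr13:87775032-87776344 (0.40 to 89.8), chr6:136242723-136243366 (6.19 to 93.0) and chr2:214181463-214182794 (2.39 to 87.1). Of these 5, 2 had a GR site within 1 kb. The largest falls were at chr2:95787048-95787305 (rank 92.4 to 2.46), chr2:242576782-242577013 (90.2 to 1.40), chr5:154135718-154136014 (86.5 to 2.46), chr17:46126288-46126743 (84.1 to 1.40) and chr16:639429-639689 (84.9 to 2.46). None of these 5 had a GR site within 1 kb, and all 5 were narrower with dexamethasone. Of all 6556 pairs, 455 had a GR site within 1 kb and 33.1% were wider with dexamethasone. With so few pairs, no contrast between rises and falls or between chromosomes can be read from these counts. Beside GR, the 5 pairs that widened most had log2 width ratios of 2.18 to 3.89 and 5 of 5 rose in rank, while the 5 that narrowed most had -2.38 to -1.83 and 2 of 5 rose. Of all 455 pairs beside GR, 328 rose.

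Seen from the GR sites, dexamethasone acetylation lay on the flanks. H3K27ac covered the GR summit itself at 605 of 1815 sites with vehicle (33.3%, 31.2 to 35.6) and at 508 with dexamethasone (28.0%, 25.9 to 30.1). Acetylation within 1 kb on both sides was found at 688 sites with vehicle (37.9%, 35.7 to 40.2) and at 817 with dexamethasone (45.01%, 42.7 to 47.3). The summit lay in a gap between flanking peaks at 83 sites with vehicle and 309 with dexamethasone. Of those 309, 139 were inside a vehicle peak, 76 had no vehicle acetylation within 1 kb, 52 lay in a gap with vehicle as well and 42 had vehicle acetylation on 1 side. The median gap was 321 bp with dexamethasone (middle 50% of gaps 207 to 486 bp) and 287 bp with vehicle. Coverage was highest 400 bp to the left (43.0% of sites) and 450 bp to the right (43.6%) of the summit with dexamethasone, and 350 and 300 bp away (37.2% and 36.4%) with vehicle.

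Between the vehicle and dexamethasone lists, the deeper gap was not particular to GR, while the fuller flanks were seen at GR and not at ER sites. At ER summits the share in a gap, among sites with acetylation on both sides, was 17.0% (15.0 to 19.1) with vehicle and 35.7% (32.9 to 38.5) with dexamethasone, against 12.1% (9.72 to 14.7) and 37.8% (34.5 to 41.2) at GR summits. In the list with both hormones the share was lower than with dexamethasone alone, at 24.2% (ER) and 20.8% (GR). With estradiol it was 17.6% (ER) and 13.6% (GR). Acetylation on both sides fell at ER sites, from 37.9% (36.3 to 39.5) with vehicle to 31.9% (30.4 to 33.5) with dexamethasone. With both hormones it was 46.4% at GR and 51.2% at ER sites. With estradiol and no dexamethasone it was 41.4% (39.1 to 43.7) at GR and 53.7% at ER sites. At GR sites the rise from vehicle to dexamethasone was smaller with peaks of −log10 q of 20 or more. The shares were then 34.99% (32.8 to 37.2) with vehicle and 37.9% (35.7 to 40.2) with dexamethasone. These intervals overlap, but both shares are over the same GR sites, so the overlap does not compare them. Peaks were more broken up in the dexamethasone list in general: 1949 of 9854 kept vehicle peaks (19.8%) met 2 or more dexamethasone peaks, and 761 of 11423 kept dexamethasone peaks (6.66%) met 2 or more vehicle peaks. The fragment lengths estimated by the caller were 232 bp with dexamethasone and 244 bp with vehicle.

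**Figure D3:**
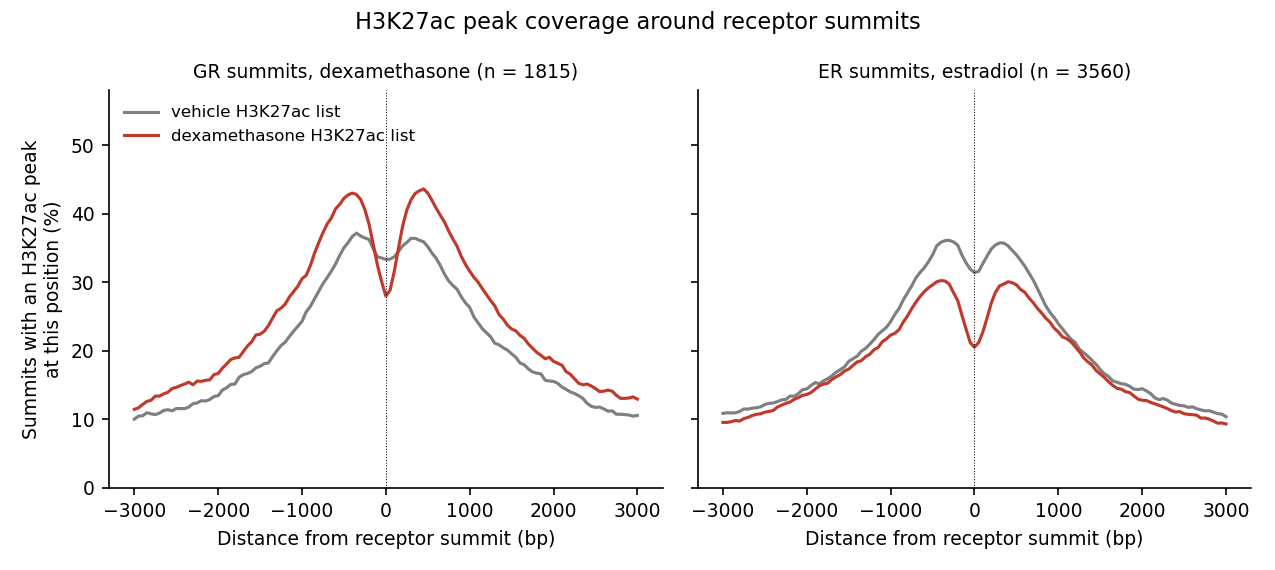
Percent of GR summits (left) and ER summits (right) with an H3K27ac peak at each position from -3000 to 3000 bp, for the vehicle list (grey) and the dexamethasone list (red). At GR sites the red curve lies above the grey one on the flanks and below it at the summit (28.0% and 33.3%). At ER sites it lies below at the summit and on the near flanks.

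Most GR sites had the same acetylation call in both lists. Within 1 kb of the summit, 775 of 1815 sites were acetylated in both lists (42.7%), 808 in neither (44.5%), 183 in the dexamethasone list only (10.1%, 8.74 to 11.6) and 49 in the vehicle list only (2.70%, 2.004 to 3.55). The sites acetylated with dexamethasone only were the strongest for GR, with a median fold enrichment over control of 16.5 (middle 50% of sites 11.3 to 31.2), against 11.2 for sites in both lists, 12.995 for vehicle only and 14.2 for neither. Of the strongest 25% of GR sites, 82 of 454 sites (18.1%, 14.6 to 21.9) were acetylated with dexamethasone only, and of the weakest 25%, 30 of 454 (6.61%, 4.50 to 9.30). A gained peak lay within 1 kb of 303 GR sites, of which 110 had 2 or more. A lost peak lay within 1 kb of 83.

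Strong GR sites did not all carry acetylation. The GR site with the highest −log10 q, chr4:23932516-23932997 (fold enrichment 91.0), upstream of PPARGC1A, a coactivator gene of mitochondrial metabolism, was acetylated in both lists: vehicle had 2 peaks of 976 and 551 bp within 10 kb, and dexamethasone had a single peak of 6747 bp that joined them. A gained peak of 3003 bp lay to the left. The second, chr6:30894572-30894828 (96.7), had no H3K27ac peak within 10 kb in either list. The third, chr3:127022979-127023486 (75.9), had 1 gained peak of 610 bp to its left. The fourth, chr17:8057659-8057936 (70.3), lies just upstream of PER1, a circadian clock gene induced by glucocorticoids. It had gained peaks of 905 bp over its right edge and of 538 bp over a second GR site, and vehicle peaks of 247 and 637 bp farther upstream were lost. The fifth, chr4:122990732-122990974 (93.5), had its summit between gained peaks of 524 and 925 bp, with 2 more gained peaks to the right.

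Of the 5 strongest gained peaks with a GR site, 3 belonged to sets that surround the site. The strongest of the 5, chr5:66563111-66565998, was 2888 bp wide, had a pileup of 131 (list median 32) and covered 2 GR sites, with no vehicle peak within 5 kb. The second and the fourth, chr13:83639557-83641408 (pileup 101) and chr13:83637629-83639278 (74), lay to either side of 1 GR summit and within a run of 12 gained peaks, chr13:83619928-83642768, the longest run when gained peaks within 5 kb were joined. The stretch of this run also held a kept peak with a vehicle partner, chr13:83621958-83625768, listed above among the largest rank rises. The third, chr6:35693696-35695778 (pileup 84), is the FKBP5 region: 5 gained peaks of 397 to 2083 bp, no vehicle peak within 10 kb, and GR summits in 2 of the gaps between them. The fifth, chr1:24310361-24312490 (80), covered a GR site and had 2 vehicle peaks within 5 kb. All 5 were in the H3K27ac list of cells given both hormones, and 2 were in the estradiol list. Of all gained peaks with a GR site, 70.4% and 25.7% were in these lists, so no trait can be read from these 5.

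**Figure D4:**
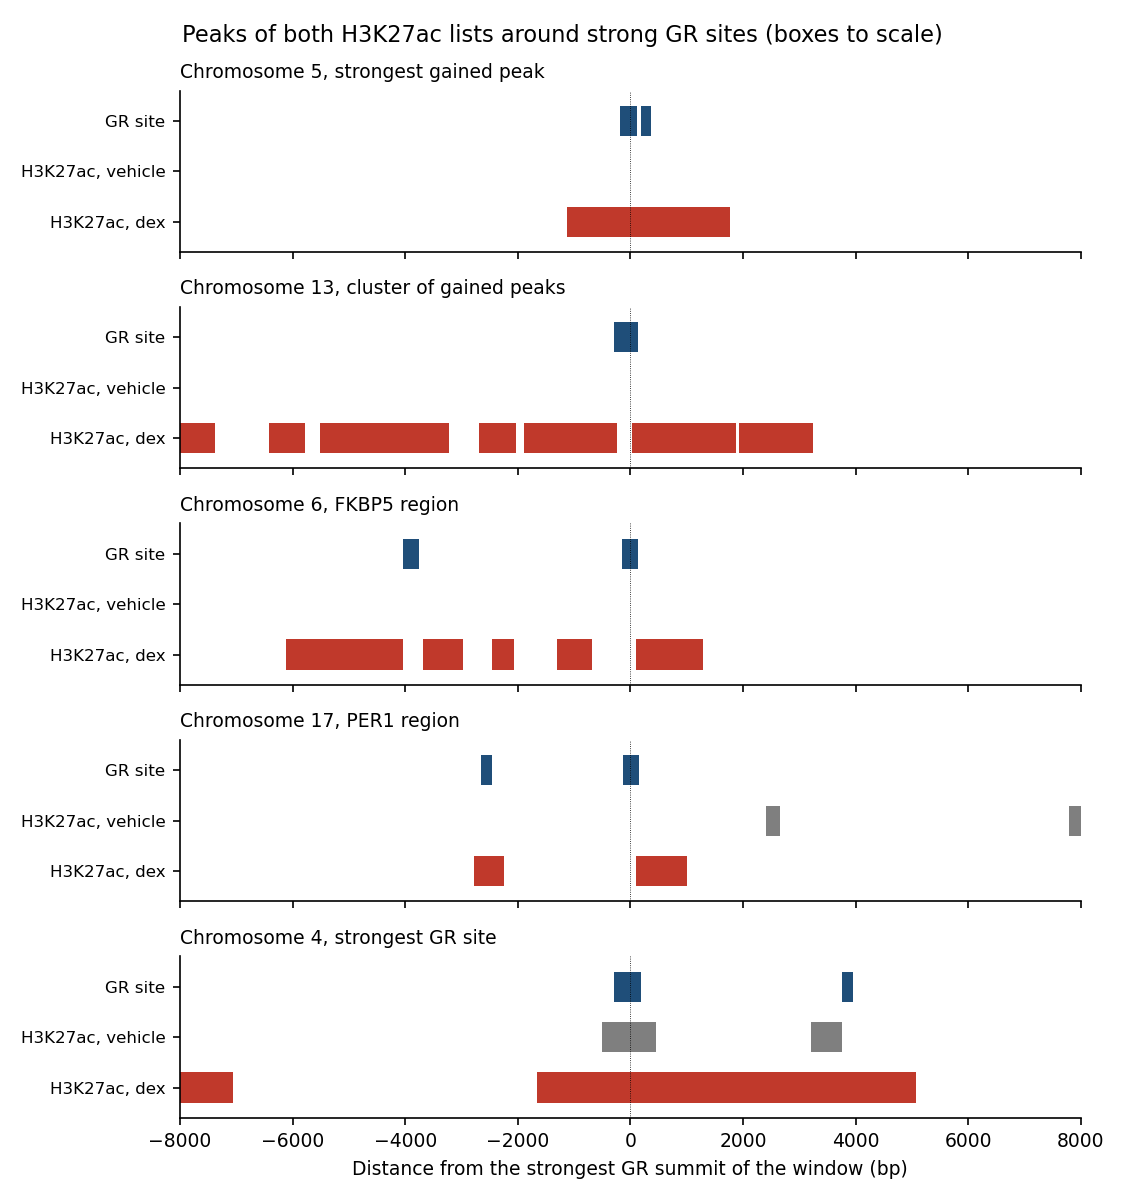
Peaks of both H3K27ac lists and GR sites in 5 windows, drawn to scale by distance in bp from the strongest GR summit of the window. Red boxes are dexamethasone peaks, grey boxes vehicle peaks and blue boxes GR sites. In the first 3 windows there is no vehicle peak, and in the last a dexamethasone peak of 6747 bp spans 2 vehicle peaks.

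Runs of gained peaks had GR sites more often than lone ones. With gained peaks within 5 kb joined, 1837 stood alone, and 134 of these (7.29%, 6.15 to 8.58) had a GR site within 1 kb. Of 503 runs of 2 peaks 16.7% (13.5 to 20.3) had one, and of 253 runs of 3 or more 26.1% (20.8 to 32.0) did. Longer runs span more sequence, and this was not adjusted for.

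The strongest gained peaks without a GR site within 1 kb were chr2:156065689-156067794 (pileup 145), chr6:152095586-152096293 (61), chr6:141438159-141439626 (53), chr2:102748479-102749187 (55) and chr7:80049440-80050233 (48). The second lies within ESR1, the gene of ER, between other acetylated peaks, with 7 vehicle and 8 dexamethasone peaks from 10 kb before to 10 kb after it. It had an ER site within 1 kb and its nearest GR site was 29489 bp away. The nearest GR site of the first was 245197 bp away.

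Among the strongest lost peaks were chr1:44411852-44413035 (pileup 164, list median 46.9) at the start of IPO13, chr19:1652595-1653026 (129) at TCF3, chr8:101963616-101964924 (134) at YWHAZ, a gene of the 14-3-3 family, and chr19:1848406-1848866 (126) at REXO1. None of these 4 had a GR or ER site within 1 kb, their nearest GR sites were 66186 to 325441 bp away, and all 4 were called with estradiol and with both hormones. Of all lost peaks, 0.781% had a GR site and 4.07% an ER site within 1 kb. Of all lost peaks, 92.5% were called with estradiol and 61.4% with both hormones, so no trait can be read from these 4. Lost peaks with a GR site were weaker. The strongest was chr1:159894373-159895322 (pileup 82.5), and the 3 strongest overlapped their GR site, on chromosomes 1, 2 and 17. The others of the 5 strongest were on chromosomes 10 and 3, 84 and 113 bp from a GR site. Of the 88 lost peaks with a GR site, 34 (38.6%, 28.4 to 49.6) had a dexamethasone peak within 1 kb, against 18.9% (18.2 to 19.6) of all lost peaks.

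Chromosomes rich in lost peaks were poor in gained ones. Lost peaks ranged from 40.4% (37.4 to 43.4) of vehicle peaks on chromosome 4 to 68.6% (65.2 to 71.8) on chromosome 16, and were 64.7% on chromosome 19 and 63.2% on chromosome 22. Gained peaks were 8.98% of dexamethasone peaks on chromosome 16, 7.90% on chromosome 19 and 6.72% on chromosome 22, against 35.8% on chromosome 4 and 37.2% on chromosome 13. Over 23 chromosomes the shares had a Spearman rho of -0.80, given as a description, since all chromosomes come from the same 2 libraries and chromosomes 16, 19 and 22 are known to be rich in genes and in G and C. On each of the 23 chromosomes, vehicle peaks within 10 kb of a GR site were lost less often than those beyond 100 kb, for example 6.11% and 50.97% on chromosome 4 and 40.0% and 68.4% on chromosome 19. The part of base composition in the lost peaks was not tested.

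**Figure D5:**
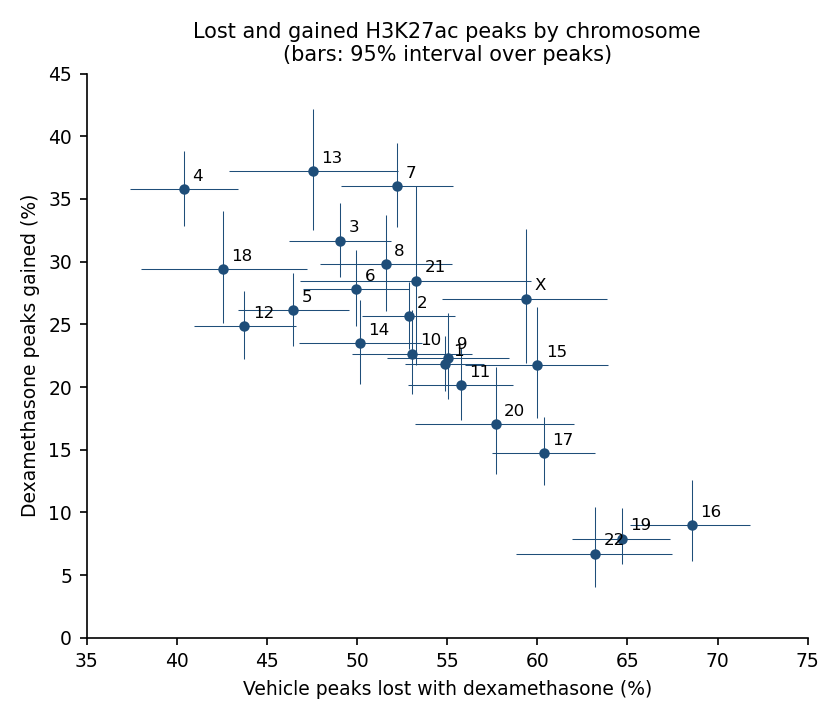
Percent of vehicle peaks lost (horizontal) and of dexamethasone peaks gained (vertical) for each of 23 chromosomes, with exact 95% intervals over peaks. Chromosomes 16, 19 and 22 lie at the lower right, with lost shares above 60% and gained shares below 10%, and chromosome 4 lies at the upper left.

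The other H3K27ac lists were used to place these calls. Their libraries held 10852521 usable tags with estradiol and 9657258 with both hormones, and the part of depth in these shares was not tested. Of the 3769 gained peaks 57.5% (55.9 to 59.1) overlapped a peak of the list with both hormones and 29.0% (27.5 to 30.5) one of the estradiol list. Kept dexamethasone peaks were found there more often, at 95.7% (95.3 to 96.0) and 94.7% (94.3 to 95.1). For gained peaks with a GR site the shares were 70.4% (65.7 to 74.8) and 25.7% (21.5 to 30.2), against 55.9% (54.2 to 57.6) and 29.4% (27.8 to 30.9) of gained peaks without one. Of the 11266 lost peaks 92.5% (92.0 to 93.0) were called with estradiol and 61.4% (60.5 to 62.3) with both hormones. For kept vehicle peaks these shares were 93.7% (93.2 to 94.2) and 96.0% (95.6 to 96.4), so lost and kept peaks were close in the estradiol list and far apart in the list with both hormones.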

How the data were processed

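The files are peak lists deposited by the authors. The submitters' processing notes name Bowtie 1.1.2, MACS2 2.1.0.20140616 and build hg19. Per the file headers, MACS2 compared each library with a control, kept narrow peaks past a p-value cutoff of 1e-10, counted 1 tag per position and scaled the larger library down. In the authors' lists, pileup is a signal: scaled fragment coverage at the summit. Significance was deposited on a −log10 scale, for p-value and q-value. The deposited fold enrichment is a ratio of pileup to local background. These values ranked or described peaks within a list only. The labels name the control both an input and IgG, so its kind is uncertain. The treatment protocol text gives 1 h for all samples, and the 8 h used here is each H3K27ac sample's own label.

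Overlaps, shares with exact Clopper-Pearson 95% intervals, and order-statistic intervals of medians were computed with Python 3.11.15, NumPy 2.4.6, pandas 2.3.3 and SciPy 1.17.1. The code was tested on simulated intervals. With 1 library a side no p-value was computed. Positions are hg19 and 1-based. Named regions are the 5 highest by −log10 q in each class, and the 5 largest rank and width shifts. Of the 5 strongest lost peaks, 1 is not reported here. The comparison, the distance bins, the sets and the lists were chosen with earlier results of these data known. The 5 strongest GR sites, the runs of gained peaks and the promoters shown were added after values were seen. Gene lists and marker lists were not analysed here, because no hg19 annotation was used.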

Additional observations from a re-analysis of the deposited data

How the results depend on the processing

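Across 11 alternative settings, 27 of 74 recomputed values stayed near the main value and 47 moved. A count was near when within 1.5 times the main count, and a share or median when inside the main value's 95% interval. Neither the width ratio over all pairs nor the rank shift at GR pairs changed sign, and counts and shares cannot. The rank shift of the other pairs did, from -0.56 to 0.25 when peaks within 1 kb counted as shared. The order of gained and kept peaks in GR share turned with GR inside the peak. At a −log10 q of 20 or more, gained peaks numbered 1980, 39.8% of vehicle peaks were kept, the median log2 width ratio was -0.26, GR sites had acetylation on both sides at 37.9% (dexamethasone) and 34.99% (vehicle), and a GR site lay near 14.6% of gained and 11.2% of kept peaks. With the stronger 50% of each list, 2110 were gained, 5899 lost and 44.1% kept, the width ratio was -0.25, the rank shift at GR pairs 7.49 points, both-sided acetylation 36.3% and 31.1%, and GR shares 15.0% (gained) and 12.2% (kept). With lists cut to equal length, 7189 were lost and 52.7% kept, the width ratio was -0.42, the rank shift 7.66, vehicle both-sided acetylation 34.8%, and GR shares 9.68% (gained) and 0.473% (lost). With peaks within 1 kb joined, 1584 were gained, 7078 lost and 49.7% kept, with a width ratio of -0.25. With 50% of a peak covered, 35.6% were kept, the width ratio was -0.11, the rank shift 5.77 and the GR share of lost peaks 1.04%. With sharing within 1 kb, 2065 were gained and 56.7% kept, the width ratio was -0.59, and GR shares were 13.4% (gained) and 0.591% (lost). With GR inside the peak, the rank shift was 6.09 and GR shares were 2.47% (gained), 4.81% (kept) and 0.257% (lost); within 10 kb they were 26.4%, 16.0% and 3.59%. With the stronger 50% of GR sites they were 6.82%, 3.94% and 0.328%, and vehicle both-sided acetylation was 33.4%. The cause of these moves was not tested, and fewer peaks or sites entered under some of the settings only. The ratio of GR shares, gained over lost, was 13.8 and ranged from 7.37 to 22.7. No paired analysis was possible because each group has 1 library. A peak missing from the shallower dexamethasone list does not show that acetylation was absent, and the part of depth was not tested.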

Other observations

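Splitting of kept peaks depended on width. Of kept vehicle peaks with a GR site within 1 kb, 27.3% (24.4 to 30.5) met 2 or more dexamethasone peaks, against 19.1% (18.3 to 19.9) of those without. Vehicle peaks with a GR site were wider, and among peaks of 2000 bp or more the order turned, with 46.8% (41.3 to 52.4) of 329 split with GR and 59.6% (56.7 to 62.4) of 1195 without. The reverse event, a dexamethasone peak joining 2 or more vehicle peaks, was found at 14.3% (12.1 to 16.6) of kept dexamethasone peaks with a GR site and 5.95% (5.50 to 6.42) of those without.

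Beside the chromosome 13 set, the longest runs of gained peaks were at chr1:206294506-206309870 (9 peaks, 1 GR site), chr7:12746899-12756761 (8 peaks, 1 GR site), chr7:47010131-47020931 (8 peaks, 0 GR sites) and chr2:156001522-156010812 (7 peaks, 0 GR sites).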
